A study of Mus musculus with 6 samples.

Results

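The let-7 family was followed by genomic locus and by hairpin arm in small RNA libraries of the embryonic mouse kidney. Its members were taken by name, as every mature strand of the mouse stems mmu-let-7a, mmu-let-7b, mmu-let-7c, mmu-let-7d, mmu-let-7e, mmu-let-7f, mmu-let-7g, mmu-let-7i, mmu-let-7j and mmu-miR-98 in the deposited table of known miRNAs. This gave 20 mature strands of the 535 mature miRNAs in the table, held on 25 rows and on 13 of the 436 precursors listed. All 20 passed the filter on low counts (above 10 when all 6 libraries are added), as did 525 of the 535 miRNAs. The opposite-arm strands of let-7g and let-7a-2 were not analysed here.

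Libraries came from 2 groups of 3, with embryos of CD1 mice taken at embryonic day 15.5 in both and no transgene or drug named in the labels. Nephron progenitors (MNP1, MNP2 and MNP6) were nephrogenic mesenchymal cells enriched by magnetic negative selection, in which cells carrying stromal, endothelial, epithelial and erythroid surface antigens were removed. Whole kidney (MWK1, MWK2 and MWK6) was the kidney tissue left after the limited digestion. Replicates came from 3 litters, and since no sample is titled MNP6 or MWK6, these 2 columns were placed by group alone, with no replicate number. The RNA kit differed with the group (miRNeasy Micro for progenitors and Mini for whole kidney), so kit, cell isolation and group cannot be told apart. Within each list of values below, libraries stand in the order just given.

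let-7 is one of the first miRNA families described, and its mature form accumulates as cells leave the progenitor state in many tissues. A let-7 hairpin is cut by Drosha and then by Dicer, and the strand from the 5′ arm is usually the one kept in the silencing complex, where its seed pairs with target mRNAs such as Lin28a, Lin28b and Hmga2. The LIN28 proteins bind the terminal loop of the let-7 hairpin and block its processing, so primary transcript, hairpin and mature strand can follow different courses.

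The strands the results turn on are printed here to show how few bases separate members that are counted apart. Sequences are from RefSeq (table build GRCm38.p6), where all 20 strands had a match, and are written 5′ to 3′ with the seed, bases 2 to 8, in capitals.
let-7a-5p: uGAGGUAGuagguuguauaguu
let-7b-5p: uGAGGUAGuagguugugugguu
let-7c-5p: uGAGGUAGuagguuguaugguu
let-7d-5p: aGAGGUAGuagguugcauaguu
let-7e-5p: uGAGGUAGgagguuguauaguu
let-7f-5p: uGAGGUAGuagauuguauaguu
let-7g-5p: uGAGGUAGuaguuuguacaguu
let-7i-5p: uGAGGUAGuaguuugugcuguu
miR-98-5p: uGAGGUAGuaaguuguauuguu
let-7j: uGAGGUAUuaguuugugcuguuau

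The seed GAGGUAG is common to 9 of these strands and let-7j has GAGGUAU. Counted from 1 at the 5′ end of let-7a-5p, let-7c-5p differs from it only by A19G, let-7e-5p only by U9G and let-7f-5p only by G12A. let-7d-5p differs by U1A and U16C, and miR-98-5p by G11A and A19U. Of the 45 pairs among the 10 strands, 5 pairs differ at 1 base over their shared length, let-7i-5p with let-7j among them. Counts of these members can therefore exchange reads through single-base differences. let-7j differs from let-7i-5p by G8U and by 2 more bases at its 3′ end. Its count was between 82.7% and 84.6% of that of let-7i-5p in all 6 libraries, in a near constant ratio, and the overlap of their reads was not tested. Sums are given with and without it.

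The opposite arms are less alike, and the 4 with called or well counted strands are shown with their own seeds in capitals. The first line holds for both let-7a-1 and let-7c-2, whose 3p strands have one sequence, and their counts cannot be told apart.
let-7a-1-3p, also let-7c-2-3p: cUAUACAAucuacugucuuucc
let-7c-1-3p: cUGUACAAccuucuagcuuucc
let-7d-3p: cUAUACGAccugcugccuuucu
let-7e-3p: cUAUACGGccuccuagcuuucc

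The 13 precursors lay at 9 places in mm10, taking precursors within 100 kb as neighbours. let-7a-1, let-7f-1 and let-7d lay within 2.26 kb on the minus strand of chromosome 13 (let-7d at chr13:48536012-48536114, let-7a-1 at chr13:48538179-48538272), in exons of the lincRNA 6720427I07Rik. let-7c-2 and let-7b lay 0.801 kb from end to end on chromosome 15, in exons of Lncppara (let-7b at chr15:85707319-85707403). let-7f-2 and mir-98 shared an intron of Huwe1, a ubiquitin ligase gene, on chromosome X (mir-98 at chrX:151913214-151913321).

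At the remaining 3 clusters a let-7 hairpin sits between a hairpin of the miR-99/100 family and one of the miR-125 family. let-7e (chr17:17830352-17830444), in an intron of Spaca6, lay with mir-99b and mir-125a. let-7c-1 (chr16:77599657-77599750), in an intron of Mir99ahg, lay with mir-99a and mir-125b-2. let-7a-2 (chr9:41536716-41536811), in an intron of 3110039I08Rik, lay with mir-100 and mir-125b-1. Host genes of the miR-99/100 and miR-125 hairpins were not looked up. let-7g (chr9:106178840-106178927, an intron of Wdr82), let-7i (chr10:122985640-122985724, an exon of D630033A02Rik) and let-7j (chr3:140028249-140028370, no host gene in the GENCODE annotation) lay apart from other let-7 hairpins.

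Listing by precursor does not separate the loci of one mature sequence. let-7a-5p has rows for let-7a-1 and let-7a-2, and its lower count was 88.2% to 91.1% of its higher one across libraries. The same share was 91.6% to 93.1% for let-7c-5p and 96.7% to 97.7% for let-7f-5p. The loci of these 3 strands were therefore not resolved, and the higher of the 2 counts was kept in each library. Only a strand with 1 precursor can speak for its own locus, and then only where its count holds no reads of near-identical members.

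**Figure D1:**
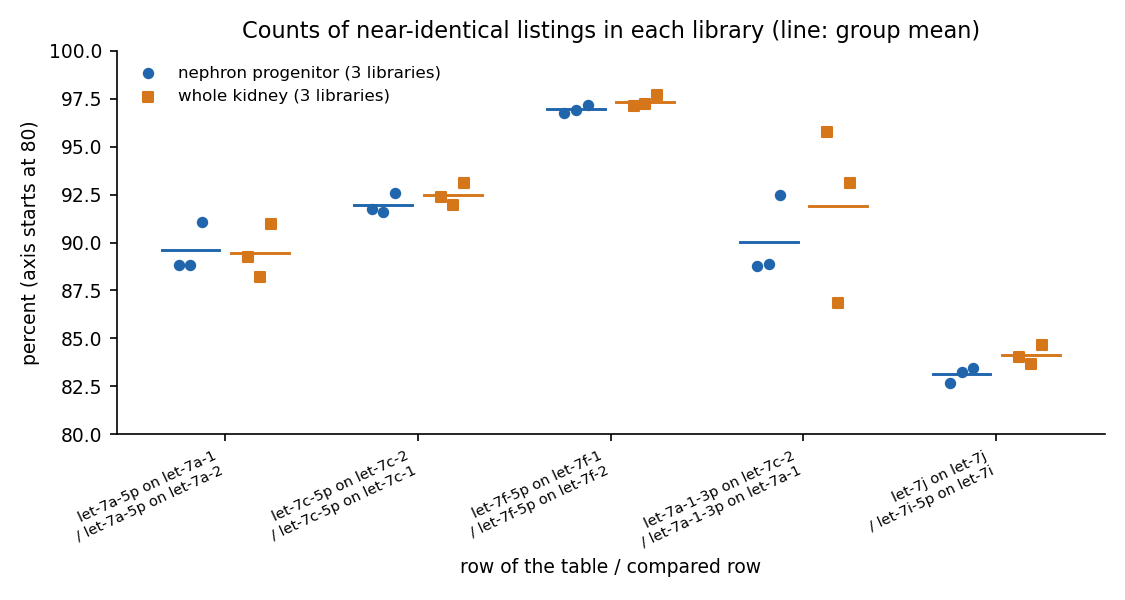
Count of the less counted listing as a percentage of the more counted one, for each pair of listings and each of the 6 libraries. The pairs stay between 82.7% and 97.7%, with let-7j against let-7i-5p the lowest.

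let-7 strands held 19.0%, 17.9% and 17.3% of all counts in the progenitor libraries and 14.8%, 14.1% and 14.4% in whole kidney, and the groups did not overlap. Leaving out let-7j but keeping it in the total, the shares were 14.4%, 13.3% and 12.6% against 11.2%, 10.6% and 10.6%. The totals behind them were 333850 to 436112 counts a library. Once libraries were scaled by edgeR's TMM method, which corrects for differences in makeup, the summed CPM (counts scaled to a common library total) were 184356, 170469 and 151717 in progenitors and 155664, 160234 and 149487 in whole kidney, and these ranges overlapped. The 5p strands without let-7j summed to 138692, 125704 and 109805 CPM against 116731, 120021 and 109521 CPM, again with overlap. With library totals in place of TMM the sums were 190082, 179439 and 172942 against 148233, 141270 and 143923, with no overlap. The family sums also did not overlap with DESeq2 size factors, by a narrow margin (158232 in the lowest progenitor library and 157014 in the highest whole kidney library), or with TMM on counts summed over rows (172465 and 171439). The 5p strands without let-7j overlapped in both of these settings and separated only with library totals.

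Member by member, 6 of 20 strands were higher in nephron progenitors and 0 were lower by the quasi-likelihood test of edgeR, Benjamini-Hochberg adjusted over all 525 miRNAs (adjusted p of 0.05 or less). Over all miRNAs tested 19.4% were higher and 17.1% lower, 36.6% in either direction. For 8 of 20 strands every progenitor library was above every whole kidney library, against 23.4% of all miRNAs, and for 0 every one was below (46.7% of all miRNAs did not overlap in either direction). The log2 fold change of progenitors over whole kidney was above 0 in 16 of 20 strands, with a median of 0.32 beside -0.011 over all miRNAs. The 16 are not independent, since they hold the shared 3p sequence of let-7a-1 and let-7c-2 under both names. They also hold let-7b-3p, let-7f-1-3p and miR-98-3p, which had few counts. Both let-7i-5p and let-7j are among the 16 and among the 8. In bulk RNA, fewer cells of a type and less RNA per cell cannot be told apart.

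let-7c-5p rose most among the abundant strands. It stood at 8782, 7350.1 and 7355 CPM in progenitors and at 5379.7, 5009.8 and 4597 CPM in whole kidney. The log2 fold change was 0.65 (SE 0.15, adjusted p = 0.0039). Every progenitor library was above every whole kidney library, and the call held without any 1 of the 6 libraries.

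let-7e-5p stood at 3459, 2879.9 and 3022 CPM in progenitors and 2027, 1959 and 2105 CPM in whole kidney. All progenitor libraries were higher, with a log2 fold change of 0.62 (SE 0.16, adjusted p = 0.0069), and the call again held without any 1 library. let-7e-5p is listed on a single precursor. It differs from the more abundant let-7a-5p by 1 base, so its count need not come from that locus alone.

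let-7a-5p stood at 17077, 14186 and 12892 CPM in progenitors against 11391, 11427 and 10651 CPM in whole kidney. The groups did not overlap and the log2 fold change was 0.40 (SE 0.15, adjusted p = 0.047). This call was close to the threshold: it held in 1 of 6 fits that left out a library, the one without MNP6, and DESeq2 gave an adjusted p of 0.076.

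The most abundant member, let-7i-5p, stood at 53699.7, 52473 and 49026 CPM in progenitors and at 45293, 47138 and 46542 CPM in whole kidney. Its groups did not overlap, yet its log2 fold change of 0.16 (SE 0.12, adjusted p = 0.35) did not pass. With library totals it was 0.36 (adjusted p = 0.010), while the median of all miRNAs moved to 0.19 under that scaling. let-7j followed let-7i-5p, with 44408, 43683 and 40921 CPM against 38057, 39445 and 39397 CPM, no overlap and a log2 fold change of 0.14 (SE 0.12, adjusted p = 0.42).

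let-7f-5p stood at 29313, 25704 and 18742 CPM in progenitors and 26426, 27792 and 22630.5 CPM in whole kidney, with overlapping groups and a log2 fold change of -0.06 (SE 0.17, adjusted p = 0.83). let-7g-5p stood at 19105, 17238 and 13991 CPM against 19781, 20590.2 and 17368 CPM, also with overlap, and its log2 fold change was -0.20 (SE 0.15, adjusted p = 0.36). In both strands MNP6 was the lowest of the 6 libraries.

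let-7d-5p had the smallest difference, with 4872, 4037 and 3306 CPM in progenitors around 4375, 4012 and 3844 CPM in whole kidney and a log2 fold change of -0.0018 (SE 0.17, adjusted p = 0.996). let-7b-5p stood at 1605, 1219.9 and 1049 CPM against 1293, 1323 and 1007 CPM, a log2 fold change of 0.10 (SE 0.20, adjusted p = 0.77). Neither strand separated the groups.

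miR-98-5p, the least abundant 5p strand, stood at 778, 617 and 423 CPM in progenitors and at 767, 771 and 776 CPM in whole kidney. The whole kidney libraries lay close together and the progenitor libraries spread on both sides of them, with a log2 fold change of -0.35 (SE 0.22, adjusted p = 0.27). Without MNP1 it was -0.56 (adjusted p = 0.031), so 1 library decided whether it passed as lower.

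**Figure D2:**
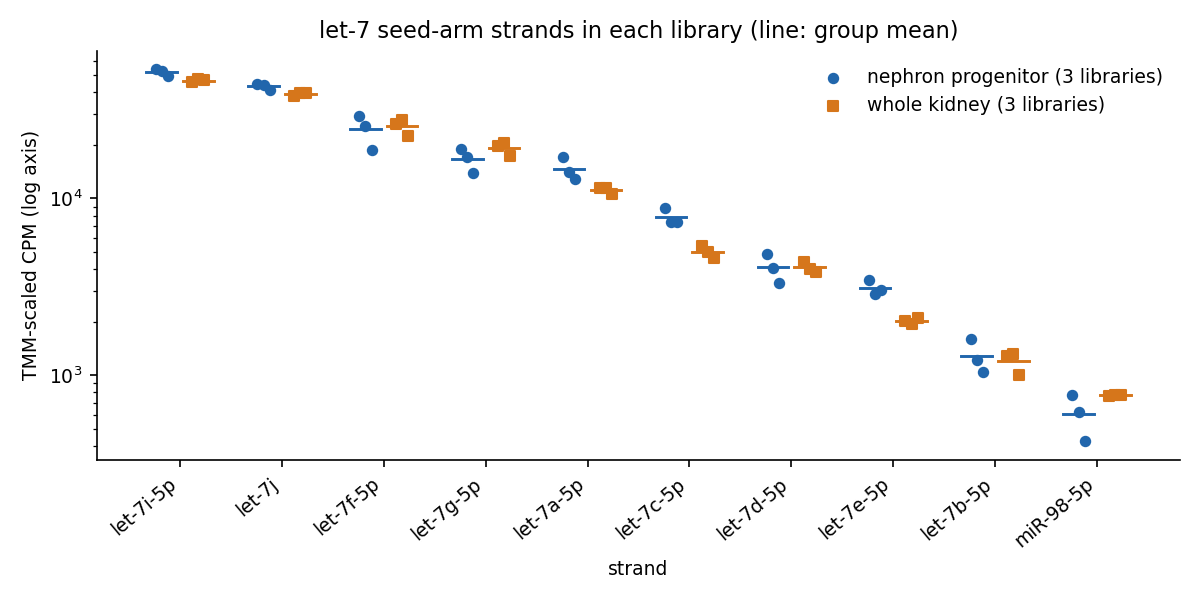
TMM-scaled CPM of each seed-arm let-7 strand in each library on a log axis, with nephron progenitor and whole kidney libraries as separate markers. let-7i-5p is highest at 45293 CPM or more, and let-7c-5p and let-7e-5p show separated groups.

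The order of the 9 seed-bearing 5p strands was the same in both groups, from let-7i-5p through let-7f, let-7g, let-7a, let-7c, let-7d, let-7e and let-7b to miR-98-5p. In whole kidney no neighbours in this order had overlapping ranges. In progenitors let-7f with let-7g, let-7g with let-7a and let-7d with let-7e overlapped, although the upper strand was above the lower one within each of the 3 libraries. The gap between let-7g-5p and let-7a-5p was a ratio of means of 1.14 in progenitors and 1.73 in whole kidney, and that between let-7d-5p and let-7e-5p was 1.30 and 2.01.

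As shares of the 9 strands, which do not depend on scaling between libraries, let-7c-5p made up 6.29% ± 0.427 (SD, n = 3) in progenitors and 4.33% ± 0.244 in whole kidney. let-7a-5p made up 11.8% ± 0.515 against 9.67% ± 0.129, and let-7e-5p 2.51% ± 0.231 against 1.76% ± 0.147. For these 3 members all progenitor libraries were above all whole kidney libraries.

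let-7g-5p and miR-98-5p went the other way without overlap, with 13.4% ± 0.580 against 16.7% ± 0.697 and 0.479% ± 0.0884 against 0.670% ± 0.0349. let-7i-5p (41.7% ± 2.96 and 40.2% ± 2.01), let-7f-5p, let-7d-5p and let-7b-5p overlapped. Shares of one whole are tied to each other, so a higher share of one member lowers the rest.

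**Figure D3:**
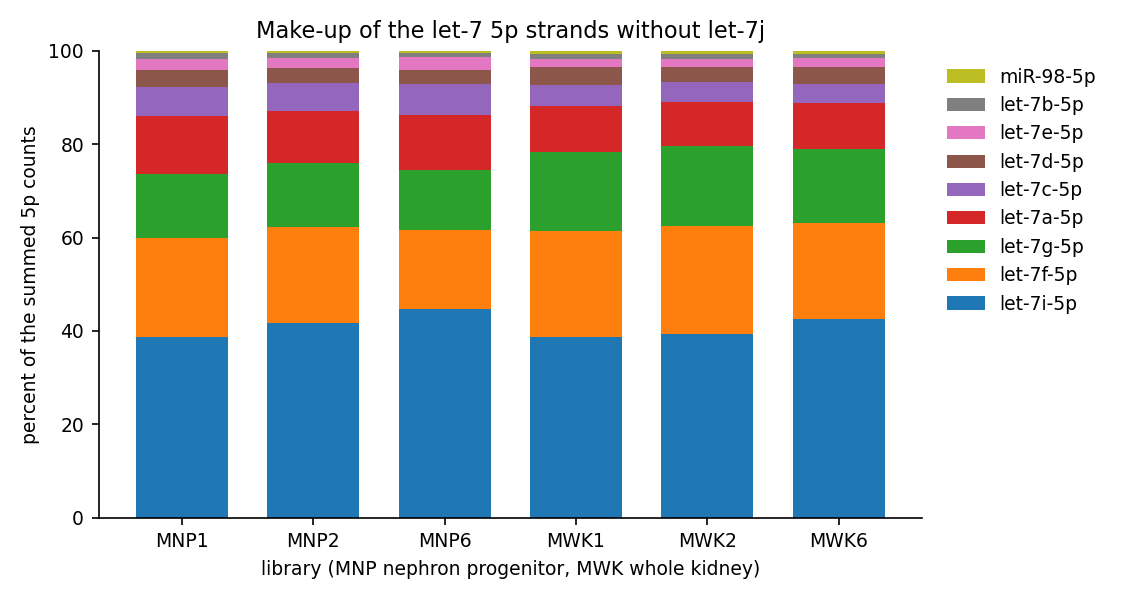
Percentage of the 5p strand counts held by each member in each library. let-7c-5p, at 6.29% on average in progenitors and 4.33% in whole kidney, and let-7g-5p, at 13.4% and 16.7%, move in opposite directions.

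The opposite arms were scarce: without let-7j and counting the shared 3p sequence once, 3p strands made up 0.758%, 0.716% and 0.80% of the family in progenitors and 0.625%, 0.538% and 0.440% in whole kidney. The groups did not overlap. In 7 of the 10 opposite-arm strands the mean was under 10 counts in a group.

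let-7d-3p, the main opposite-arm strand, stood at 682, 569 and 636 CPM in progenitors and 493, 422 and 342 CPM in whole kidney. All progenitor libraries were higher, with a log2 fold change of 0.59 (SE 0.21, adjusted p = 0.040), but the call was lost in each of the 6 fits that left out a library. The 5p strand of the same hairpin had a log2 fold change of -0.0018.

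let-7c-1-3p, the strand that speaks for the chromosome 16 locus of let-7c, had 19, 21 and 14 counts in progenitors and 6, 5 and 3 counts in whole kidney. This was 46.8, 45.7 and 36.8 CPM against 18.04, 15.7 and 8.76 CPM, with no overlap and a log2 fold change of 1.59 (SE 0.39, adjusted p = 0.0061). The call held without any 1 library, on few counts.

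let-7e-3p had 20, 16 and 24 counts in progenitors and 8, 7 and 6 in whole kidney, or 49.2, 34.9 and 63.1 CPM against 24.1, 22.0 and 17.5 CPM. Every progenitor library was higher and the log2 fold change was 1.19 (SE 0.37, adjusted p = 0.022). It passed in 2 of the 6 fits that left out a library, those without MNP1 or MNP2.

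The 3p sequence common to let-7a-1 and let-7c-2 had 80, 81 and 40 counts against 47, 38 and 29, with overlap and a log2 fold change of 0.47 (SE 0.29, adjusted p = 0.25). let-7i-3p had 9, 22 and 8 counts against 8, 14 and 4. let-7f-2-3p had 10, 3 and 4 against 5, 5 and 3.

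The remaining strands lay near the limit of 3 counts, which equals 6.54 to 9.45 CPM. let-7f-1-3p had 6, 4 and 3 counts against 1, 2 and 3, let-7b-3p 5, 4 and 1 against 1, 0 and 0, and miR-98-3p 4, 4 and 1 against 4, 1 and 1. A difference in these strands was not detectable at this depth, and no direction is read from them.

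**Figure D4:**
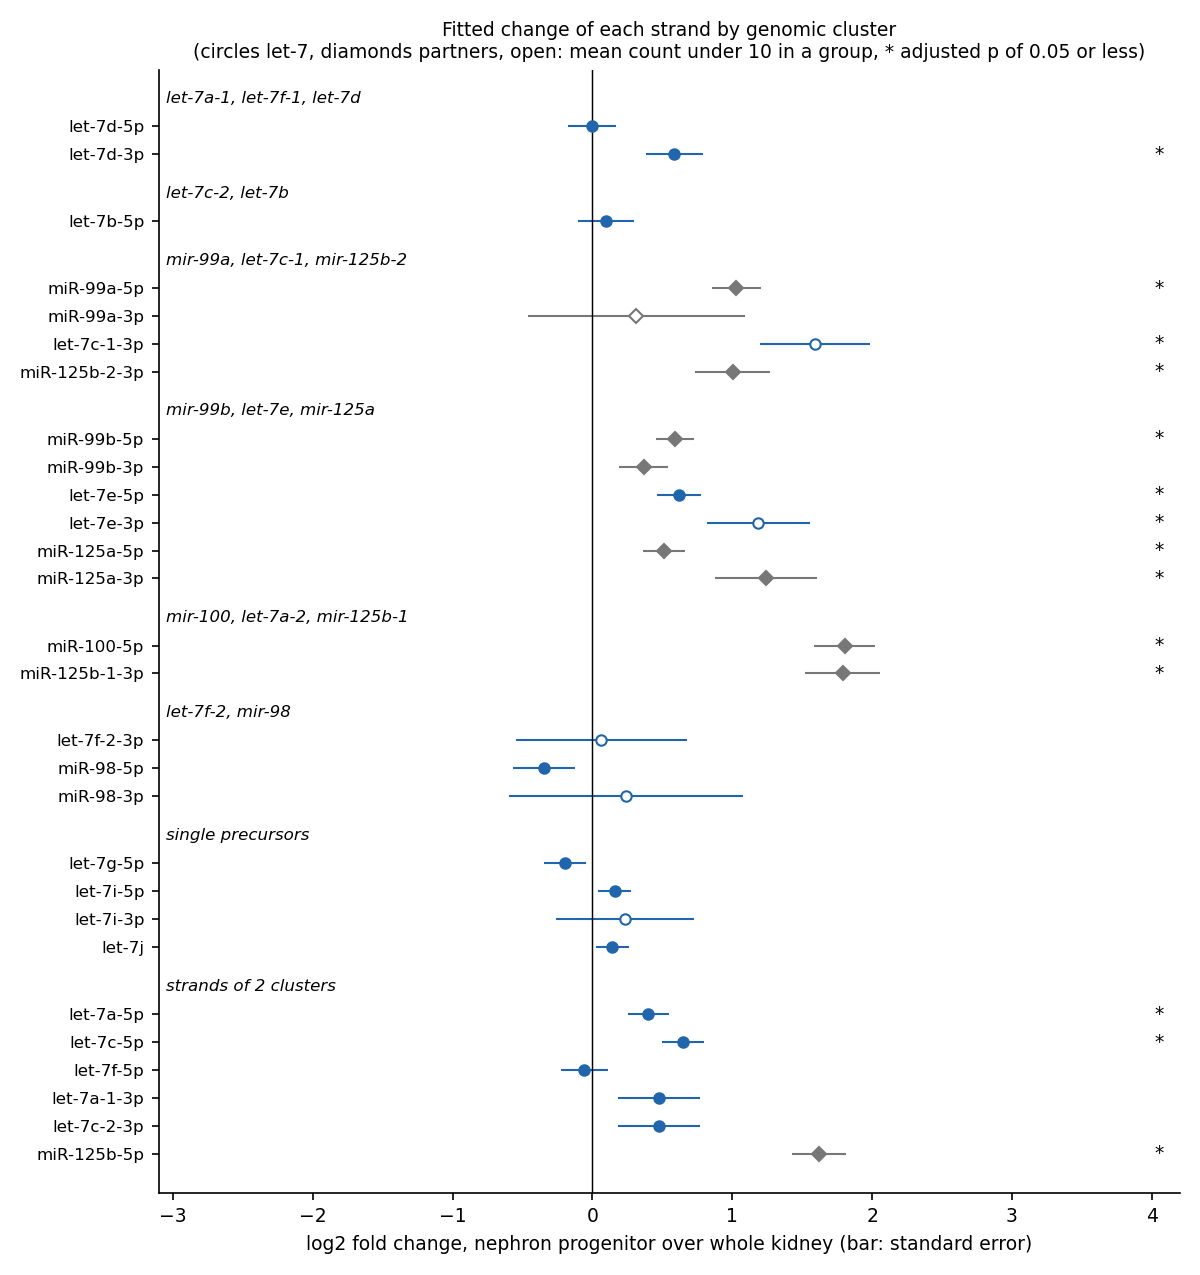
Fitted log2 fold change of nephron progenitor over whole kidney with its standard error, for let-7 strands (circles) and their cluster partners (diamonds) grouped by genomic cluster, with open symbols for a mean under 10 counts in a group and a star for an adjusted p of 0.05 or less; let-7b-3p and let-7f-1-3p, near the limit of 3 counts, are left out. The strands of the 3 clusters with miR-99/100 and miR-125 lie to the right of 0, and those of the let-7f-2 and mir-98 cluster lie around it.

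By locus, the 3 let-7 strands with a single precursor in the clusters with miR-99/100 and miR-125 were all higher in progenitors. Both arms of the let-7e hairpin are among them, and let-7e-3p and let-7c-1-3p rest on few counts. The call of let-7e-3p held in 2 of the 6 fits that left out a library. In the chromosome 17 cluster let-7e-5p (log2 fold change 0.62) stood beside miR-99b-5p at 0.59 and miR-125a-5p at 0.51, and on the opposite arms let-7e-3p (1.19) beside miR-125a-3p at 1.24 and miR-99b-3p at 0.37, the last not past the threshold (adjusted p = 0.13). In the chromosome 16 cluster let-7c-1-3p (1.59) stood beside miR-99a-5p at 1.03 and miR-125b-2-3p at 1.00, while miR-99a-3p, at 0.31, did not pass and its groups overlapped (adjusted p = 0.81). In the chromosome 9 cluster no let-7 strand has a single precursor, and let-7a-5p, shared with chromosome 13, was at 0.40 beside miR-100-5p at 1.81 and miR-125b-1-3p at 1.79.

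Over these 3 clusters 8 of 10 partner strands were higher and 0 lower, against the same 19.4% over all miRNAs, with a median log2 fold change of 1.02. miR-100-5p showed the widest gap, with 13751, 20419 and 28221 CPM in progenitors and 5518, 6014 and 6319 CPM in whole kidney. Its highest progenitor library was MNP6, the library in which let-7a-5p was lowest among progenitors. On chromosome 16, too, MNP6 was the highest progenitor library for miR-99a-5p and miR-125b-2-3p and the lowest for let-7c-1-3p. miR-99a-3p, with few counts, was highest in MNP1. Elsewhere, of the strands with a single precursor on chromosomes 13, 15 and X, let-7d-3p alone passed.

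The ratio of a 3p strand to the 5p strand of the same name was compared within each library, so that scaling between libraries cancels. In 5 of the 10 pairs the 5p strand has 1 precursor and both strands are listed for 1 hairpin. In the other 5, those of let-7a, let-7c and let-7f, the 5p count is shared by 2 loci. let-7d-3p was 14.0%, 14.1% and 19.2% of let-7d-5p in progenitors and 11.3%, 10.5% and 8.88% in whole kidney, so the groups did not overlap. The log2 difference of the arm ratio was 0.61 (SE 0.18, limma adjusted p = 0.059). let-7c-1-3p was 0.533%, 0.622% and 0.5% of let-7c-5p against 0.335%, 0.314% and 0.191%, a log2 difference of 0.90 (SE 0.27, limma adjusted p = 0.059).

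let-7e-3p was 1.42%, 1.21% and 2.09% of let-7e-5p against 1.19%, 1.13% and 0.832%, also without overlap, with a log2 difference of 0.50 (limma adjusted p = 0.37). By limma 0 of 10 let-7 arm pairs passed, against 11.3% of the 159 pairs tested, and 3 of 10 had an unadjusted p under 0.05, against 22.6% of all pairs. Those 3 were let-7d-3p, let-7c-1-3p, whose 5p count is shared by 2 loci, and let-7b-3p, with few counts. edgeR's arm-by-group term called 1 of the 10, let-7d (log2 difference 0.61, SE 0.17, adjusted p = 0.0083), beside 15.1% of all pairs. The ratio leaned to the 3p arm in progenitors in 8 of 10 let-7 pairs, 5 of the 5 with a 5p strand of 1 precursor and 3 of the other 5, beside 54.7% of all 159 pairs. Of the 8, let-7b-3p rests on 0 or 1 count in whole kidney, and let-7f-1-3p and miR-98-3p also lie near the limit of 3 counts. The differences of let-7a-1-3p (0.052) and let-7i-3p (0.088) were near 0 and changed sign in fits that left out a library. Such fits gave from 6 of 10 pairs (without MWK6) to 9 of 10 (without MWK2) on the 3p side.

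**Figure D5:**
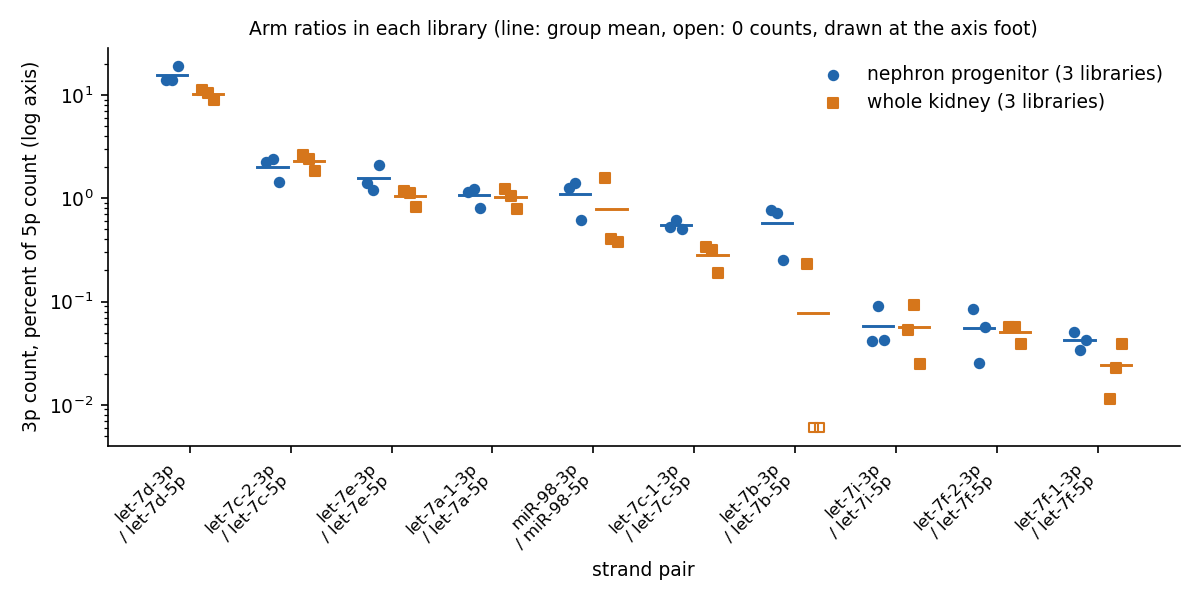
The 3p strand as a percentage of the 5p strand of the same name, for each library, on a log axis, where the 5p count of let-7a, let-7c and let-7f is shared by 2 loci. let-7d has by far the highest share, 14.0% to 19.2% in progenitors and 8.88% to 11.3% in whole kidney.

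The terminal loops are shown because they differ between loci more than the mature strands do, and because 2 short motifs there, GGAG and GAU, are known as contacts of LIN28 proteins. Motifs were read on the RNA strand only, between the mature arms, and GAU inside GGAGAU was not counted. Capitals mark GGAG or GAU, and 3 of the loops over 30 bases are shown as a window around GAU.
let-7a-1 loop: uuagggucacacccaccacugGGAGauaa
let-7c-1 loop: uagaguuacacccugGGAGuuaa
let-7c-2 loop: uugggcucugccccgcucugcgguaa
let-7e loop: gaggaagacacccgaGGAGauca
let-7b loop window: ucagggcaguGAUguugccccuc
let-7d loop window: uuagggcagaGAUuuugcccaca
let-7g loop window: gagggucuauGAUaccacccggu

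The first motif, GGAG, was in 9 of the 12 let-7 loops read (75.0%) and in 8.2% of the 645 hairpins with both arms in the RefSeq table, and GAU in 5 of 12 (41.7%) beside 15%. let-7c-2, let-7b and mir-98 lacked GGAG. Arranged by GAU, a grouping made with the results known and given as a description, let-7a, let-7c, let-7e and let-7i have it in none of their loops, and their 5p log2 fold changes ran from 0.16 to 0.65. let-7b, let-7d, let-7g and miR-98 have it, and theirs ran from -0.35 to 0.10. let-7f has it in 1 of its 2 loops and was at -0.06. The 2 ranges stayed apart in 14 of 16 settings and overlapped without MNP6 or without MWK1. These settings reuse the same libraries, so they are no test of the grouping. The nearest members, let-7i-5p (0.16, SE 0.12) and let-7b-5p (0.10, SE 0.20), lay closer together than either standard error. Of the members without GAU, let-7a, let-7c and let-7e also have a hairpin beside miR-99/100 and miR-125, and no member with GAU does. Apart from let-7i, loop motif and genomic cluster can therefore not be told apart here. A motif match says nothing about binding in these cells.

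Markers of epithelial, endothelial and erythroid cells were mostly lower in progenitors. Most stromal and leukocyte markers did not pass, and over all miRNAs 19.4% were higher and 17.1% lower. Of 7 epithelial strands 7 were lower in progenitors, with summed CPM of 89.3 to 386 against 21834 to 25414, and miR-141-3p and miR-200b-5p had 0 counts in every progenitor library. Both strands of the endothelial miR-126a were lower (419 to 595 against 18150 to 21311 CPM), as were 5 of 7 erythroid strands (271 to 549 against 952 to 1858 CPM). Of 10 stromal and smooth muscle strands 2 were lower and 1 higher (44014 to 59521 against 80125 to 95642 CPM), and of 5 leukocyte strands 1 was higher (71.0 to 152 against 61.3 to 101 CPM). The part of these cells in the let-7 differences was not tested.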

How the data were processed

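Small RNA of 3 nephron progenitor and 3 whole kidney libraries was sequenced. The authors trimmed reads with BBDuk, aligned them to mm10 with Bowtie2 (2.2.3 per the labels) and counted miRBase miRNAs with miRDeep2. The deposited estimated counts are raw, per mature miRNA and precursor. The 3 rows with fractions were rounded, and the tests planned for counts were kept.

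Per library the highest count over the rows of a mature name was used. edgeR 4.0.16 in R 4.3.3 (TMM, quasi-likelihood) was fitted to 525 miRNAs with a sum over 10 counts. Standard errors were log2 fold changes over the square root of F. Arm ratios, log2((3p + 0.5)/(5p + 0.5)), were tested with limma 3.58.1 over 159 pairs. DESeq2 1.42.0 and limma-voom were alternatives. The edgeR and limma steps were run on simulated counts with the same spread in both groups and no shared reads. Unequal spread and shared reads were thus not covered. Hosts came from GENCODE, and figures from matplotlib 3.10.9.

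Members, partners, markers and motif groups were chosen with earlier results of these data known. All members are named. Permutation tests planned for sums and shares are not printed, since members were chosen that way. Between replicates, chi-square per degree of freedom was 2.90 to 8.82 in whole kidney and 20.6 to 55.0 in progenitors. P-values set the difference between groups against the spread between these samples. For each miRNA edgeR fits a spread common to both groups, although progenitor replicates spread more. Without molecular identifiers, a floor of 3 counts covers counting error only.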

Additional observations from a re-analysis of the deposited data

How the results depend on the processing

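Of 20 let-7 strands 6 passed by edgeR, as with limma-voom, DESeq2 size factors, no filter or summed rows. DESeq2 called 4, library totals 8, and more than 10 counts in every library 5 of 13; leaving out 1 library gave 3 to 5. let-7c-5p and let-7e-5p passed in each of these fits. Whether equal numbers in MNP1, MNP2, MWK1 and MWK2 mark one litter is not given in the sources used here, and r between their deviations was 0.039. With the replicate block 4 let-7 strands passed, as without it on those libraries (let-7d-3p adjusted p = 0.14 and 0.16, let-7e-3p 0.12 and 0.13), and partner strands went from 8 of all libraries to 5 with the block and 6 without. let-7 arm pairs passed were 1 of 3 with more than 10 counts in every library (33.3% of all 57 pairs) and 1 of 10 by edgeR (15.1% of 159). The cause was not tested.

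Strands near 0 changed sign. let-7d-5p was 0.016 by DESeq2 and by its size factors, 0.19 with library totals, 0.0069 unfiltered, 0.048 with over 10 counts everywhere, 0.027 with summed rows, and 0.052 with the replicate block and without it. let-7f-2-3p was -0.13 by limma-voom, -0.065 with the replicate block and -0.052 without. Library totals gave 0.14 for let-7f-5p and 0.0022 for let-7g-5p. The arm difference was 0.096 for let-7f-2-3p by edgeR and -0.21 for let-7i-3p with and without the replicate block.

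Leaving out 1 library, the log2 fold change ran from -0.085 to 0.19 for let-7b-5p, -0.15 to 0.090 for let-7d-5p, -0.62 to 0.41 for let-7f-2-3p, -0.20 to 0.067 for let-7f-5p, -0.29 to 0.77 for let-7i-3p and -0.083 to 1.17 for miR-98-3p. The arm difference ran from -0.12 to 0.23 for let-7a-1-3p, -0.35 to 0.027 for let-7c-2-3p, -0.37 to 0.41 for let-7f-2-3p and -0.37 to 0.51 for let-7i-3p. The difference in share, in percentage points with let-7j counted, ran from -0.072 to 0.018 for let-7b-5p and -0.24 to 1.21 for let-7j. Strands with few counts are limited by depth: let-7b-3p was tested in 2 of the 6 fits that left out a library.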

Other observations

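Of 273 miRNAs with a mean of at least 50 CPM outside the family, those whose log2 level across the 6 libraries was most like that of the summed 5p strands without let-7j were miR-26a-5p (r = 0.986), miR-149-5p (r = 0.940) and miR-181c-5p (r = 0.918). These correlations describe 6 libraries that fall into 2 groups and share their scaling.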
